A study of Mus musculus with 7 samples.

Results

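The integrated stress response is the pathway by which cells slow general protein synthesis and raise a defined set of genes. Kinases that sense amino acid shortage, unfolded protein, heme shortage or viral RNA phosphorylate the translation factor eIF2, most mRNAs are then translated less, and a few, among them those of ATF4 and ATF5, are translated more. ATF4 pairs with C/EBP and other bZIP proteins on composite sites in the DNA of amino acid synthesis genes, transporters and further regulators, and in neurons this programme is known from protein misfolding and from defects of translation. The 10 genes described here are transcription factors and effectors of that pathway, named by a list of symbols that was drawn up with earlier results of these data known: Atf3, Atf4, Atf5, Ddit3, Ddit4, Trib3, Asns, Chac1, Sesn2 and Vldlr. All 10 were found among the 55401 features counted, and 9 of them were among the 17621 genes with enough counts to be tested, since Trib3 was too low.

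Ribosome-bound RNA of cerebellar Purkinje cells was collected from 4 nm3888-/- and 3 wild-type mice, with 1 mouse per library, at 3 weeks of age. The nm3888 allele arose spontaneously in NOD mice and affects Rreb1, which encodes a zinc finger transcription factor. Both genotypes carried 1 floxed allele of the ribosomal protein gene Rpl22 (Rpl22 fl/+) and PCP2-Cre, in which the promoter of a Purkinje cell gene drives Cre recombinase. Cre switches Rpl22 to a copy with a hemagglutinin (HA) tag, so that an antibody to HA recovers ribosomes and their mRNA from the cells that express Cre (RiboTag). No unbound or total RNA was compared, so a change in mRNA amount and a change in ribosome loading cannot be told apart, nor can fewer cells of a type and less RNA per cell.

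By their names, the libraries form 2 series. The first held mutants 1 and 2 and wild types 1 and 2, all female, and the second held mutants 3 and 4, both male, and wild type 3, a female. Alignments came from different programs in the 2 series, so that series, alignment and, among mutants, sex cannot be told apart, and the series was a term in every main test. Total counts were 18023017 to 56809597 in mutants and 25843485 to 107937386 in wild types, with mutant 1 the shallowest and wild type 3 the deepest library. Normalized levels (CPM, counts scaled to the library size and its TMM factor) of Rreb1 were 20.2, 19.1, 23.7 and 10.8 in the mutants, against 17.7, 17.4 and 14.4 in wild types, over all transcripts of the gene. These values overlapped and give no check of the genotype labels. The 12 markers of Purkinje cells were abundant, with a summed level of 32707 to 49452 CPM in mutants and 36148 to 43618 CPM in wild types, and 0 of 12 were called (1 at an unadjusted p under 0.05, 0 by DESeq2). Markers of other cell types were present at lower levels, and 48 of the 50 tested had a log2 fold change above 0 (median 0.55). Of the 50, edgeR called 4 higher (Calb2, Gfap, Cnp and Cldn11) and 1, Hopx, lower, against 2.58% and 5.95% of all tested genes. DESeq2 called higher 2 markers of interneurons and unipolar brush cells, 2 of Bergmann glia and astrocytes, 3 of oligodendrocytes and 1 of microglia. It called lower 1 of Bergmann glia and astrocytes. At an unadjusted p under 0.05 in edgeR, those higher were 4, 3, 4, 6, 4 and 1 for granule cells, interneurons, astrocytes, oligodendrocytes, microglia and endothelium. Summed levels in mutants and wild types were 527 to 1017 and 392 to 483 CPM for granule cells, 421 to 662 and 460 to 534 CPM for Bergmann glia and astrocytes, 664 to 1193 and 469 to 704 CPM for oligodendrocytes, and 6.02 to 12.6 and 3.52 to 6.81 CPM for microglia. The mean log2 CPM of the 50 genes was 3.43, 3.32, 4.12 and 3.95 in mutants 1 to 4, against 3.31, 2.96 and 3.23 in wild types, so that each mutant was above all wild types.

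A known ATF4 site, the C/EBP-ATF response element (CARE), has the core TGATGNAA. The core was searched on both strands of the RefSeq promoter windows of build GRCm38.p6 (250 bases before to 50 after a gene start). All 10 genes had a window, 12 windows in all, and 5 genes held the core, against 3.97% of 32851 windows. The sites of these 5 genes are shown because they are the sequence feature by which the group is known, read 5′ to 3′ on the strand of the gene, with the core in capitals. In Asns the core reads forward, and in the other genes it lies on the opposite strand.
Atf3: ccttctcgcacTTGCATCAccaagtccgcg
Chac1: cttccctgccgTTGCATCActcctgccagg
Vldlr: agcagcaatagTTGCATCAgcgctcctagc
Trib3: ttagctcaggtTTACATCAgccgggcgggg
Asns: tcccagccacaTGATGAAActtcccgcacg
Atf3, Chac1 and Vldlr shared the same 8 letters. Positions were counted from the RefSeq start of the window that held the core. In Atf3, Vldlr, Asns and Chac1 that start lies inside the span over which the gene was counted, downstream of its 5′ end. The Vldlr core was only in the window at chr19:27216770-27217069. The core began at base -110 in Atf3 (chr1:191183425-191183454), -193 in Chac1 (chr2:119351038-119351067), -200 in Vldlr (chr19:27216809-27216838) and -23 in Asns (chr6:7693214-7693243). In Trib3 it began 14 bases after the start (chr2:152344028-152344057). The windows of Atf4, Atf5, Ddit3, Ddit4 and Sesn2 did not hold these letters, which says nothing of sites elsewhere. The full cAMP response element TGACGTCA was in 1.79% of all windows, and the endoplasmic reticulum stress element, searched under the name ERSE, in 0.119%. Neither was in a window of the 10 genes. The AP-1 site TGANTCA was in 7.81% of windows and, of these genes, in that of Ddit3.

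Of the 9 genes tested, Atf3 and Atf5 rose in nm3888-/- Purkinje cells, and none fell, with 0 lower also at an unadjusted p under 0.05 and by DESeq2. Across all tested genes 455 (2.58%) were higher in nm3888-/-, 1049 (5.95%) were lower and 1504 (8.54%) were called in either direction. A call was an adjusted p under 0.05 in edgeR's quasi-likelihood test, with p adjusted over all tested genes. The median log2 fold change of the 9 genes was -0.05, against 0.03 for all tested genes, so that the pair that rose had estimates far above the middle of the group. At an unadjusted p under 0.05, for which the share of all tested genes was not counted, there were 3 of 9, Atf4 being the one added. These 3 genes, all transcription factors, were also the members in which all 4 mutants lay above all 3 wild types, a pattern found in 909 (5.16%) of the tested genes. Ddit3, a transcription factor as well, did not pass the test (log2 fold change -0.09), and neither did the effectors tested, in either direction.

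**Figure D1:**
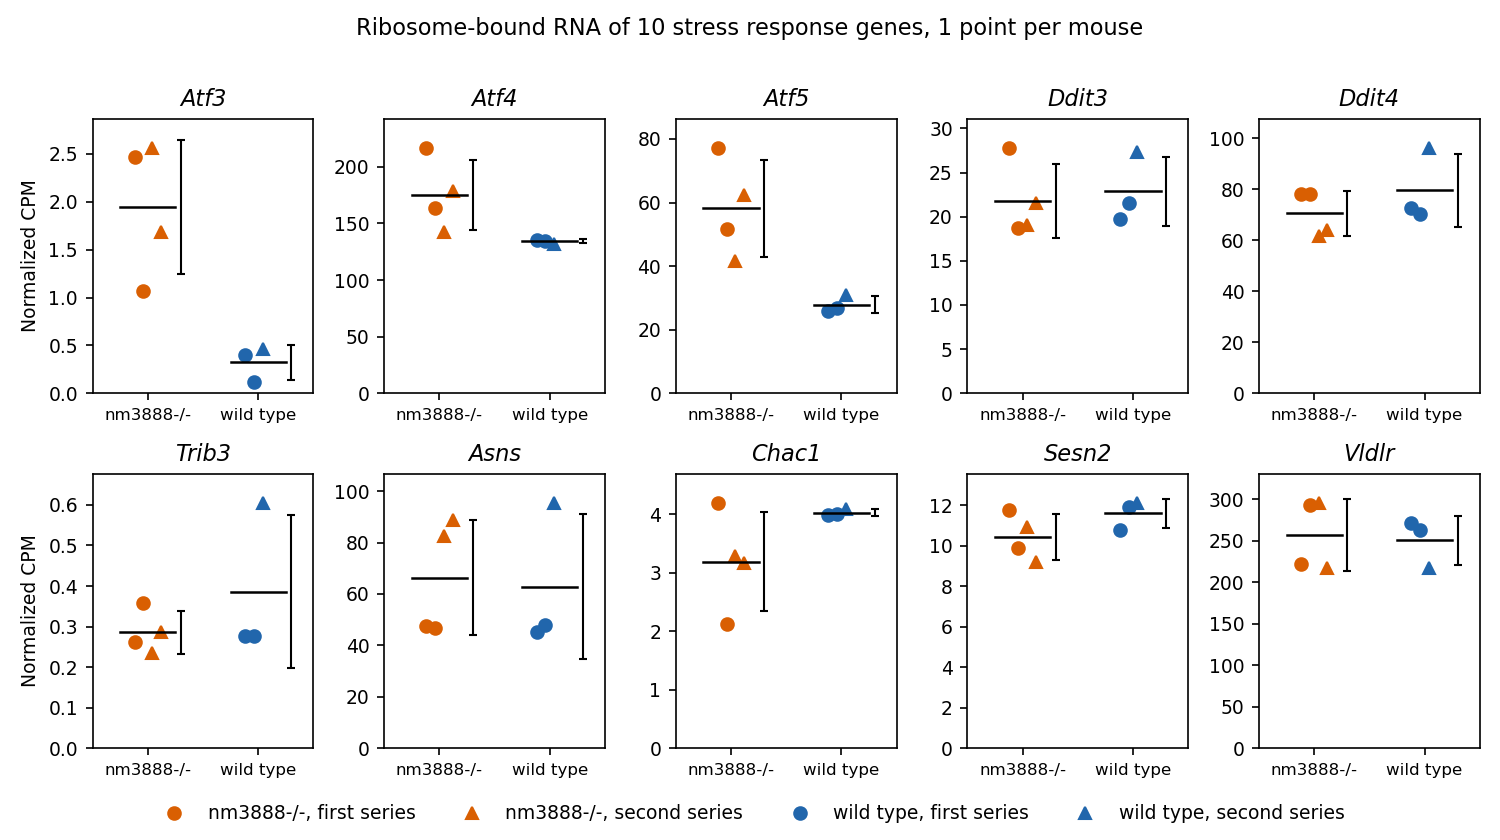
Normalized CPM (linear axes from 0) of the 10 genes in each mouse, with nm3888-/- in orange left of wild type in blue, circles for the first and triangles for the second library series, lines for the means and bars beside them for 1 SD (n = 4 and 3). The mutants lie above all wild types for Atf3, Atf4 and Atf5 and overlap them for the other 7 genes.

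Atf3 encodes a bZIP factor that is hardly made in unstressed cells and is induced by many stresses, by axon injury in neurons and by ATF4. It is on chromosome 1 (191170296 to 191218039, minus strand, build mm10). Its raw counts were 47, 36, 152 and 76 in mutants 1 to 4, against 10, 3 and 47 in wild types 1 to 3. Scaled for depth these were 2.46, 1.07, 2.56 and 1.68 CPM in mutants, against 0.395, 0.119 and 0.458 CPM in wild types. The lowest mutant was above the highest wild type, although Atf3 remained a gene of few reads in both. In edgeR this was a log2 fold change of 2.43 (SE 0.43, 95% confidence interval 1.46 to 3.41, adjusted p = 0.00983 in the quasi-likelihood test), a 5.39-fold higher level. Within the series, the mean was 1.77 CPM in mutants against 0.257 CPM in wild types in the first series, and 2.12 CPM in mutants against 0.458 CPM in the wild type in the second. The call was lost without wild type 3 (log2 fold change 2.71, adjusted p = 0.0625 in edgeR), and held when any other single library was left out.

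Atf5 encodes a bZIP factor related to ATF4 whose mRNA is likewise translated more when eIF2 is phosphorylated, and which in mammals also takes part in the mitochondrial stress response. It lies on chromosome 7 (44812256 to 44816658, minus strand). Its level was 77.1, 51.6, 41.5 and 62.5 CPM in mutants 1 to 4, against 25.8, 26.9 and 30.9 CPM in wild types. The mutants did not overlap the wild types, mutant 1 being highest and mutant 3 lowest of the mutants. Atf5 had a log2 fold change of 1.06 (SE 0.20, 95% confidence interval 0.61 to 1.52, adjusted p = 0.0134 in edgeR), a 2.09-fold higher level. Its exons share 82 bases with Nup62 and Il4i1 on the other strand, and counting used the strand. In the first series the mean was 64.4 CPM in mutants against 26.4 CPM in wild types, and in the second 52.0 CPM in mutants against 30.9 CPM in the wild type. Where mice were paired by replicate number instead of by series, the estimate was 0.97 and the adjusted p 0.0501 in edgeR, and leaving out wild type 1 or wild type 2 gave an adjusted p of 0.0557 or 0.0584, each just above the threshold.

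Atf4, the central factor of the pathway, had the most reads per length of the 10 genes. It is on chromosome 15 (80255184 to 80257541, plus strand). Its level was 217, 164, 142 and 178 CPM in mutants, against 135, 135 and 132 CPM in wild types. The wild types were nearly equal (134 ± 1.70 CPM, SD, n = 3), and the mutants were spread above them (175 ± 31.3 CPM, SD, n = 4). The log2 fold change was 0.40 (SE 0.13, 95% confidence interval 0.11 to 0.70), and the adjusted p of 0.0975 in edgeR did not reach the threshold. ATF4 protein is set largely by translation of its mRNA, which the count of bound mRNA does not show.

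Ddit3 encodes CHOP, the bZIP factor known for promoting cell death in prolonged endoplasmic reticulum stress, and is a classic target of ATF4. Its level was 27.8, 18.7, 19.1 and 21.6 CPM in mutants, against 19.8, 21.6 and 27.3 CPM in wild types. Each genotype held 1 library near the top of the range, and the groups overlapped throughout. The log2 fold change was -0.09 (95% confidence interval -0.48 to 0.31, adjusted p = 0.806 in edgeR). A second identifier of the same symbol, which covers 105 of its bases on the same strand, had 0 counts in all libraries. Reads on these shared bases may be missing from both.

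**Figure D2:**
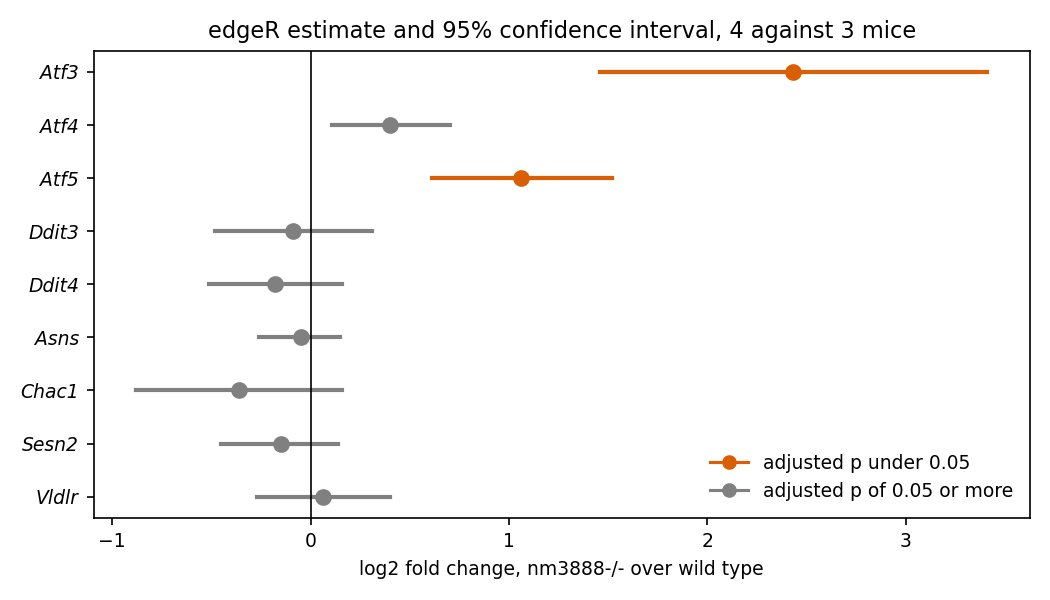
Log2 fold change of nm3888-/- over wild type (edgeR, points) with 95% confidence intervals (lines) for the 9 genes tested, in orange where the adjusted p was under 0.05. The intervals of Atf3 (1.46 to 3.41) and Atf5 (0.61 to 1.52) lie above those of Ddit3 and the 5 effectors tested, which include 0.

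Asns encodes asparagine synthetase, a standard readout of ATF4 activity, and had the narrowest interval of the group. Its level was 47.6, 46.7, 82.5 and 88.6 CPM in mutants 1 to 4, against 45.2, 48.0 and 95.4 CPM in wild types. These values followed the library series and not the genotype, with the second series above the first in both genotypes. The log2 fold change with the series as a term was -0.05 (SE 0.09, 95% confidence interval -0.26 to 0.15, adjusted p = 0.753 in edgeR). An increase as large as that of Atf5 lies outside this interval.

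Chac1 encodes an enzyme that degrades glutathione and is among the genes most responsive to ATF4. Its level was 4.19, 2.12, 3.28 and 3.16 CPM in mutants, against 3.99, 4.00 and 4.10 CPM in wild types. Of the mutants, 3 were below all wild types and 1 above them, and the log2 fold change was -0.36 (95% confidence interval -0.88 to 0.16, adjusted p = 0.39 in edgeR). Trib3 encodes a pseudokinase that binds ATF4 and CHOP and limits their action. It had 5, 12, 14 and 13 counts in mutants, against 7, 7 and 62 in wild types, or 0.236 to 0.358 CPM in mutants and 0.277 to 0.605 CPM in wild types. The highest value was that of wild type 3, the other libraries overlapped, and Trib3 was left out of the test for its low counts.

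Ddit4 encodes REDD1, and Sesn2 encodes sestrin 2, both inhibitors of the growth kinase mTORC1 that are induced under stress. Ddit4 was at 78.3, 78.1, 61.8 and 64.2 CPM in mutants, against 72.5, 70.2 and 96.2 CPM in wild types. In the first series both mutants were above both wild types, and in the second both mutants were below the wild type. The log2 fold change over all libraries was -0.18 (95% confidence interval -0.51 to 0.16, adjusted p = 0.515 in edgeR). The difference of the effect between the series, second minus first, was -0.74 (SE 0.18), with an unadjusted p of 0.00267 and an adjusted p of 0.396 in edgeR's test of the interaction. No member passed that test, which called 0.0795% of all genes, and Ddit4 was the 1 member with an unadjusted p under 0.05. DESeq2, which called 0.493% of genes in that test, gave Ddit4 an adjusted p of 0.0443. Sesn2 was at 11.8, 9.89, 10.9 and 9.21 CPM in mutants, against 10.8, 11.9 and 12.1 CPM in wild types, which overlapped, with a log2 fold change of -0.15 (95% confidence interval -0.45 to 0.14, adjusted p = 0.527 in edgeR).

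Vldlr encodes the very low density lipoprotein receptor, which binds the secreted protein reelin and guides the placement of Purkinje cells in development, and whose transcription ATF4 can raise under stress. Its level was 223, 294, 296 and 217 CPM in mutants, against 272, 263 and 217 CPM in wild types. Mutants lay at both ends of the range, 2 of them above all wild types. Its log2 fold change was 0.06 (SE 0.15, 95% confidence interval -0.27 to 0.40, adjusted p = 0.831 in edgeR).

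**Figure D3:**
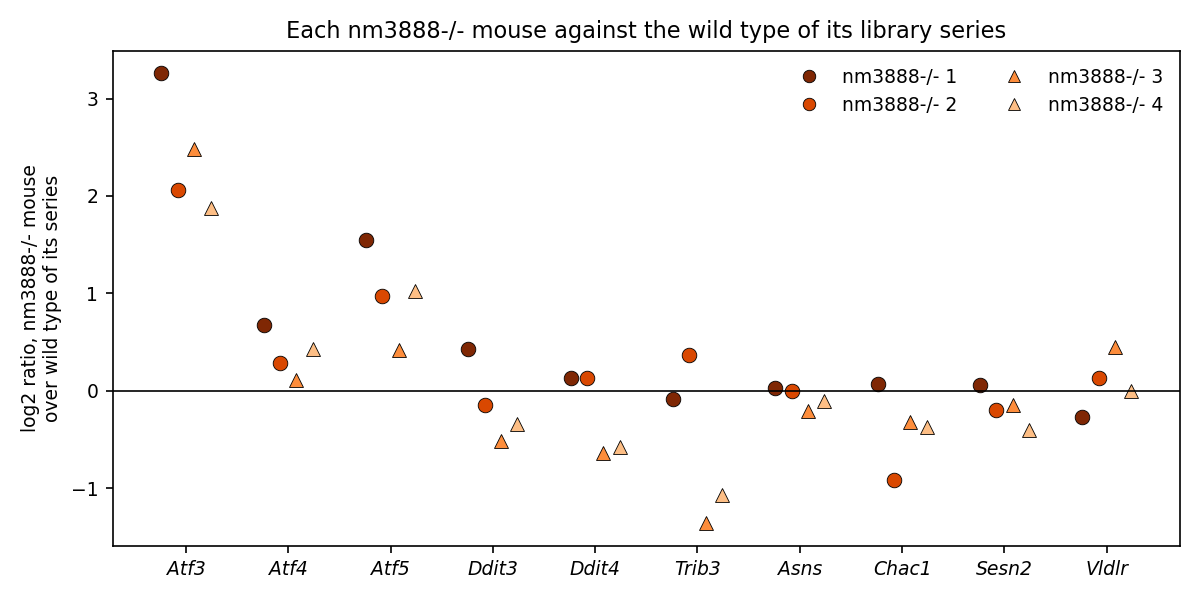
Log2 ratio of each nm3888-/- mouse to the mean of the wild types of its library series, by gene (circles first series, triangles second series, the second with a single wild type). All 4 mutants are above 0 for Atf3 (1.88 to 3.26), Atf5 (0.42 to 1.55) and Atf4 (0.11 to 0.68), while the mutants of the second series are below 0 for Ddit3, Ddit4, Trib3, Asns, Chac1 and Sesn2.

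Set against the wild types of its own series, mutant 1 had the highest ratio for Atf3 (log2 3.26), Atf4 (0.68), Atf5 (1.55) and Ddit3 (0.43). Mutant 3 had the lowest for Atf4 (0.11), Atf5 (0.42) and Ddit3 (-0.52). Over all tested genes the median of these ratios was at most 0.01 in each mutant. Mutant 1 was thus highest and mutant 3 lowest for Atf4, Atf5 and Ddit3 alike, which is a description of 4 mice and has no test. For Trib3 the ratios were -1.36 and -1.07 in mutants 3 and 4 and -0.08 and 0.37 in mutants 1 and 2, resting on 5 to 14 counts in the mutants.

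Levels of different genes were compared as CPM per kilobase of exon, with means and SD over both library series. Asns followed the series as given above, so its SD includes the gap between them. In nm3888-/- Purkinje cells Atf4 was highest (74.3 ± 13.3, SD, n = 4), followed by Ddit4 (40.2 ± 5.05), Atf5 (29.2 ± 7.66), Vldlr (25.6 ± 4.30), Asns (24.3 ± 8.15) and Ddit3 (12.7 ± 2.45). Sesn2 (3.01 ± 0.328), Chac1 (1.95 ± 0.519), Atf3 (0.903 ± 0.326) and Trib3 (0.135 ± 0.0246) were lower. In wild types the order was Atf4 (56.9 ± 0.719, SD, n = 3), Ddit4 (45.4 ± 8.18), Vldlr (24.9 ± 2.92), Asns (23.0 ± 10.3), Atf5 (14.0 ± 1.34) and Ddit3 (13.4 ± 2.29), then Sesn2 (3.34 ± 0.206), Chac1 (2.46 ± 0.0365), Trib3 (0.182 ± 0.0891) and Atf3 (0.151 ± 0.0839). In mutants the ranges of Atf5, Vldlr and Asns overlapped, and that of Ddit4 overlapped that of Atf5. In wild types Atf5 overlapped Ddit3, Vldlr overlapped Asns and Atf3 overlapped Trib3, while in mutants Atf5 was above Ddit3 and Atf3 above Trib3 in every library. Asns was above Vldlr in wild type 3 (34.9 against 21.6) and below it in wild types 1 and 2.

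**Figure D4:**
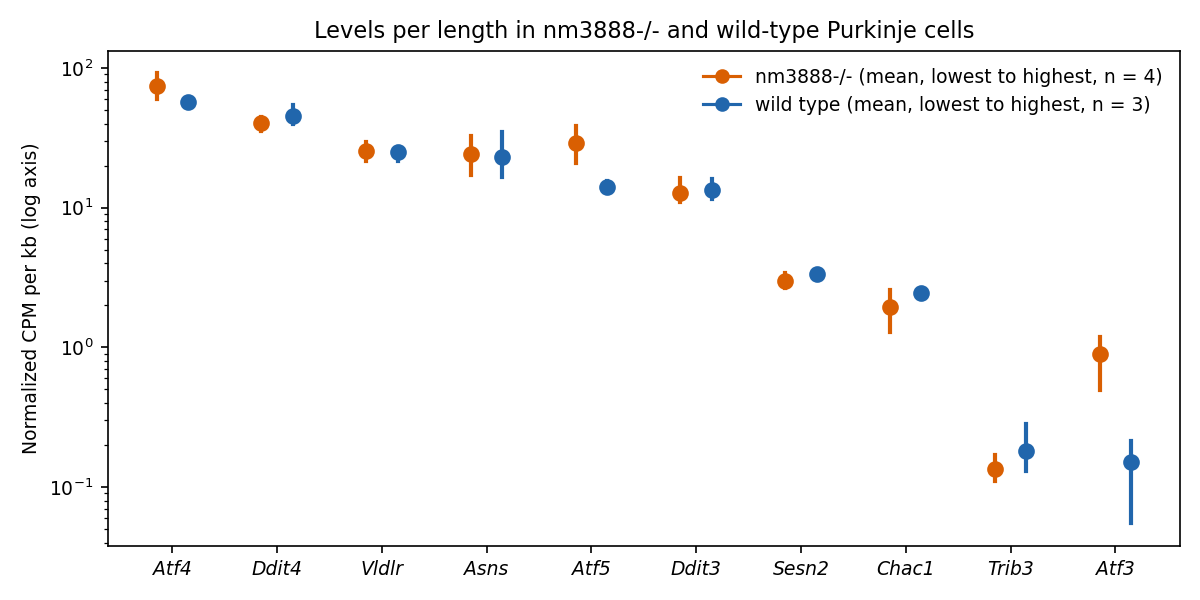
CPM per kilobase of exon (log axis) of the 10 genes, with nm3888-/- in orange left of wild type in blue, points for means and lines from the lowest to the highest mouse (n = 4 and 3). Atf5 stands level with Vldlr and Asns in mutants (29.2, 25.6 and 24.3) and with Ddit3 in wild types (14.0 and 13.4).

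The genes around these 10 were described by 9 lists, with 121 genes beside the members, of which 115 were tested. Of these, edgeR called 8 higher (6.96%) and 0 lower, against 2.58% and 5.95% of all tested genes. The same shares are the background for the single lists below. The median log2 fold change of the 115 was 0.04, and 25 of them had an unadjusted p under 0.05, while DESeq2 called 10 higher and 1 lower. Over all genes DESeq2 called 815 higher and 1267 lower of 30710 with a count, some of which it left out of its adjustment. The share of all tested genes with an unadjusted p under 0.05 was not counted, so such counts have no background here or for the single lists. Of the 8, Shmt2 alone was called whichever library was left out, and it was the only one called without wild type 3 or without mutant 2. Pairing by replicate number kept Crem, Shmt2 and Slc1a4. No list was tested as a list. Levels of other cell types moved with the genotype as given above, and their part in these calls was not tested, beyond a fit with the mean level of those markers as a further term, in which none of the 8 genes and neither Atf3 (log2 fold change 2.0, adjusted p = 0.364 in edgeR) nor Atf5 (1.42, adjusted p = 0.108) passed.

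Upstream of ATF4, the eIF2 kinases, subunits of eIF2 and its exchange factor eIF2B, and subunits of the eIF2 phosphatase showed no call among 14 tested (1, Eif2b3, at an unadjusted p under 0.05), with a median of 0.06. Eif2b3, a subunit of eIF2B, had a log2 fold change of 0.49 and an adjusted p of 0.052 in edgeR, and was called by DESeq2, with RLE scaling, with a filter of 1 CPM, with protein-coding genes alone, with thinned counts and without mutant 3. By CPM not scaled to gene length, the highest were Eif2s2, a subunit of eIF2 (log2 fold change 0.11), and Eif2ak1, the heme-regulated kinase (-0.14). Among 11 tested bZIP partners and relatives, with a median of 0.32, Crem rose, a factor of the cAMP response known for its inducible repressor forms. It was at 16.2, 28.0, 21.1 and 24.8 CPM in mutants, against 12.3, 14.4 and 10.6 CPM in wild types, which did not overlap, with a log2 fold change of 0.90 (adjusted p = 0.0274 in edgeR). Cebpa, Cebpb and Cebpd, partners of ATF4 on the composite site, were higher in all 4 mutants than in all wild types (log2 fold changes 0.85, 0.37 and 0.67) without passing the test. Of all tested genes, 5.16% were separated in this way. Cebpa and Cebpd were low, with means of 1.05 and 0.776 CPM in mutants and 0.560 and 0.475 CPM in wild types. Cebpg, a further partner, had a log2 fold change of 0.04 and 1 mutant above all wild types. Atf2 (-0.31) and Jdp2 (-0.30) went the other way, each with 3 mutants below all wild types, and did not pass either.

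Among 24 tested targets of ATF4 other than the members, edgeR called 5 higher and 0 lower, against 2.58% and 5.95% of all tested genes. At an unadjusted p under 0.05 there were 9 higher and 2 lower in this list, DESeq2 called 6 higher and 1 lower, and the median was 0.23. Shmt2, the mitochondrial serine hydroxymethyltransferase, was at 19.9, 19.8, 27.9 and 31.0 CPM in mutants, against 10.9, 11.8 and 18.6 CPM in wild types, and its log2 fold change was 0.74 (SE 0.10, adjusted p = 0.0031 in edgeR). The mutants were above the wild types overall and within each series. Cars, the cysteinyl-tRNA synthetase (0.51, adjusted p = 0.021), and Psph, the last enzyme of serine synthesis (0.65, adjusted p = 0.037), rose in the same test of edgeR. Cars was at 12.5, 11.9, 34.3 and 40.4 CPM in mutants, against 8.73, 8.27 and 26.5 CPM in wild types. Psph was at 37.0, 31.4, 36.1 and 51.5 CPM in mutants, against 17.9, 21.3 and 32.2 CPM in wild types. For both, the genotypes overlapped over all libraries, with the mutants above the wild types within each series. Nupr1, a small stress-induced nuclear protein, was at 8.91, 6.05, 7.29 and 10.2 CPM in mutants, against 3.83, 3.80 and 5.83 CPM in wild types (0.79, adjusted p = 0.0444 in edgeR). Phgdh, the first enzyme of serine synthesis, which in the cerebellum is known mainly from glia, was at 0.681, 0.686, 8.22 and 4.14 CPM in mutants, against 0.435, 0.356 and 1.62 CPM in wild types (1.48, adjusted p = 0.0489 in edgeR). Psat1, the enzyme between Phgdh and Psph in that route, had a log2 fold change of -0.42 (adjusted p = 0.0657 in edgeR) and was called lower by DESeq2. Of 9 amino acid transporters, with a median of 0.22, Slc1a4, a carrier of serine and alanine, rose (8.75, 6.71, 10.2 and 8.96 CPM in mutants, against 5.81, 3.96 and 5.16 CPM in wild types, log2 fold change 0.76, adjusted p = 0.0388 in edgeR).

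The other arms of the unfolded protein response, set by ATF6 and XBP1, showed no call among 25 genes by edgeR (1 at an unadjusted p under 0.05) or by DESeq2. Their median was -0.12, and 21 of the 25 estimates were below 0. Hspa5, the main chaperone of the endoplasmic reticulum, was at 790, 943, 845 and 704 CPM in mutants, against 847, 1044 and 839 CPM in wild types (log2 fold change -0.12), and Calr, which encodes calreticulin, had a log2 fold change of -0.18. Mitochondrial chaperones, proteases and the OMA1 and DELE1 relay, which signals mitochondrial stress to eIF2 kinases, showed no call among 7 (median 0.16, 1 at an unadjusted p under 0.05), with log2 fold changes of 0.09 for Hspa9 and 0.16 for Hspd1. Of 8 tested paralogs of the members, Trib1 rose, a relative of Trib3, at 163, 166, 122 and 109 CPM in mutants, against 105, 140 and 69.0 CPM in wild types (log2 fold change 0.55, adjusted p = 0.0339 in edgeR). No call was made among 11 regulators of mTORC1, the kinase complex that Ddit4 and Sesn2 restrain (median -0.07, Rheb -0.08, Mtor -0.06, with 0 at an unadjusted p under 0.05). No call was made either among 7 genes of the reelin pathway around Vldlr (median -0.06, 2 at an unadjusted p under 0.05), where the second reelin receptor gene Lrp8 had a log2 fold change of 0.20 and Crkl, an adaptor of reelin signalling, one of -0.21. DESeq2 called 0 genes in the mitochondrial, mTORC1 and reelin lists.

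**Figure D5:**
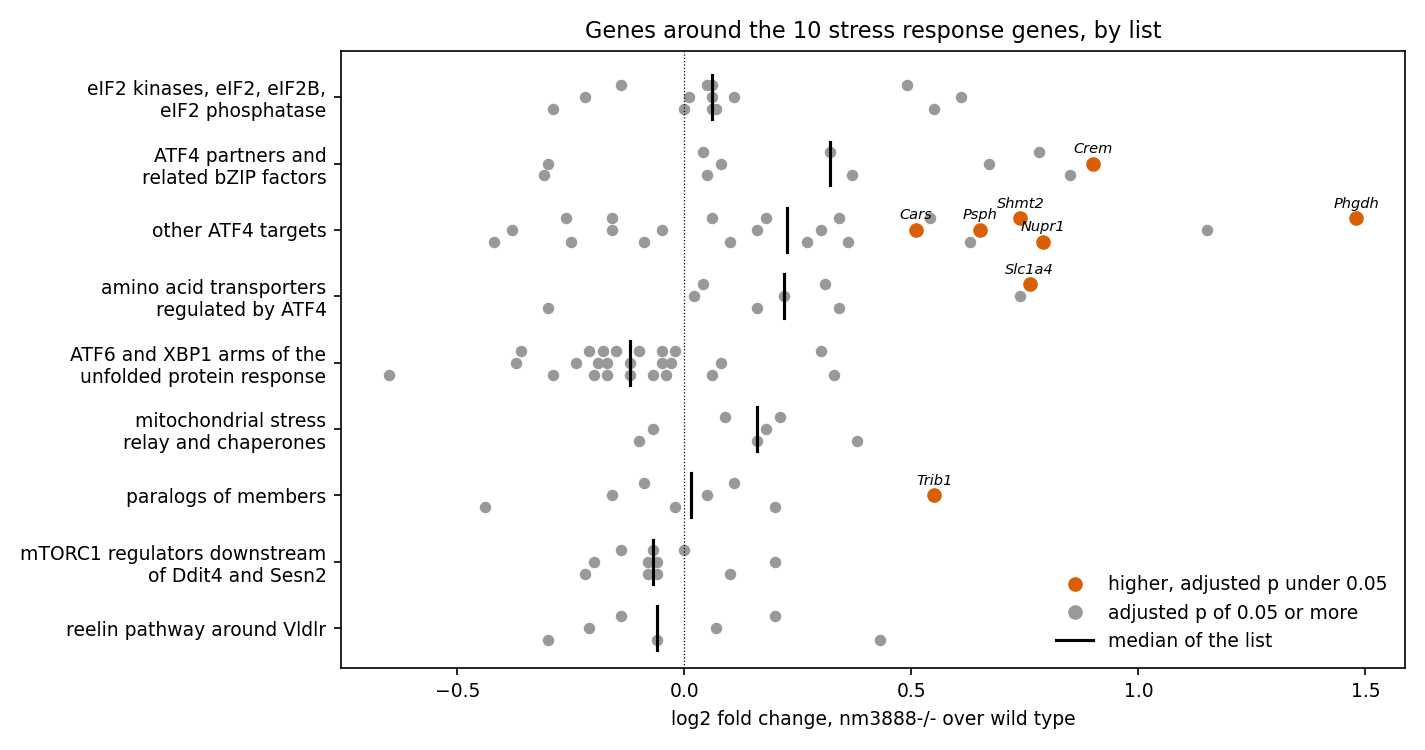
Log2 fold change of nm3888-/- over wild type for each tested gene of 9 lists around the 10 genes (1 point per gene, black bars for list medians), with genes of adjusted p under 0.05 in orange and named. The 8 called genes are all on the higher side, 5 of them among the other targets of ATF4, and the unfolded protein response list lies mostly below 0.

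The core of the composite site was also counted over all tested genes with a promoter window. Of 297 genes with the core, 15 (5.05%) rose and 19 (6.4%) fell, with a median log2 fold change of 0.03. Of 10805 genes without it, 309 (2.86%) rose and 726 (6.72%) fell, with a median of 0.01. These shares are a description and have no test. Among the 5 members with the core shown above, Atf3 rose, Asns, Chac1 and Vldlr did not pass and Trib3 was not tested. Atf5, whose windows lacked the letters, rose.

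The genes whose levels followed those of Atf3 and Atf5 most closely were found over the 7 libraries, among 10700 genes of sufficient level for Atf3 and 10699 for Atf5, by the root mean square difference of log2 CPM after centring within each series. For Atf3 they were Itga5, which encodes an integrin subunit (0.431), Stx1a, which encodes a syntaxin of the synaptic release machinery (0.487), and Lmo3, which encodes a LIM domain protein (0.492). Stx1a was at 11.6, 13.4, 12.7 and 11.6 CPM in mutants, against 2.13, 1.62 and 2.27 CPM in wild types. For Atf5 they were Hspb6, which encodes a small heat shock protein (0.079), Rps4l (0.123) and Nupr1 (0.135). Hspb6 was at 49.9, 39.0, 27.4 and 38.9 CPM in mutants, against 17.1, 19.2 and 18.4 CPM in wild types, so that it had the same order of the mutants as Atf5 but for mutants 2 and 4, which were nearly level. The distances were smaller for Atf5 than for Atf3, whose counts were far fewer. Rps4l is annotated as a transcribed processed pseudogene. Centring within series keeps the genotype difference, so genes with a like fold change come out close. Shared regulation was not tested.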

How the data were processed

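The deposited values were raw counts of read pairs per gene, with no normalization. The authors removed duplicates and trimmed reads with fastp, aligned them to the mouse genome build mm10 and counted with featureCounts 2.0.1 on GENCODE M25, paired and by strand per the file headers. The headers name Bowtie2 alignments for the first library series and STAR alignments for the second, where the methods name Bowtie2. Libraries were prepared from poly(A) RNA with a stranded kit.

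Counts were compared with edgeR 4.0.16 (glmQLFit, glmQLFTest, R 4.3.3) after TMM normalization and filterByExpr, with library series and genotype as terms, all 7 libraries and Benjamini-Hochberg adjustment over all tested genes. The authors used batch as a covariate in DESeq2, but no source assigns libraries to batches, and the series came from the library names. Standard errors were taken from the fold change and its F statistic. CPM were counts over the library total and TMM factor. Counts limit the precision of low genes, and intervals cover the spread between these mice.

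Gene symbols matched 55141 of 55401 identifiers. Motifs were searched in RefSeq promoter windows. The 10 genes were all named. For each list, up to 4 called genes per direction by adjusted p were named, or the 2 with the highest CPM where none was called, and for each called member the 3 genes most like it among those with a mean log2 CPM over 2. Outside this rule, Phgdh, called with the largest adjusted p of its list, Eif2b3, Psat1, Atf2, Jdp2 and the Cebp genes were named after their values were seen. Members and lists were chosen with earlier results of these data known.

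Mice of the same replicate number deviated together (r over tested genes of 0.914, 0.946 and 0.960 for numbers 1, 2 and 3), and this pairing came from the library series, since other pairs within a series gave 0.926 to 0.956. Within the first series, the differences between replicates 1 and 2 of the genotypes had a correlation of 0.035. Mutant 4 has no partner. Alternatives were RLE scaling, DESeq2 1.42.0, no filter, a filter of 1 CPM in 3 libraries, no series term, sex or the replicate block in its place, protein-coding genes alone, thinned counts, the level of non-Purkinje markers as a term, each series alone and each library left out.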

Additional observations from a re-analysis of the deposited data

Results flagged for a closer look

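Ddit4 had genotype estimates of opposite sign in the 2 library series, with log2 fold changes of 0.13 in the first alone and -0.61 in the second alone. Neither estimate was called, that of the first series having an adjusted p of 0.578 in edgeR. The mean was 78.2 CPM in mutants against 71.4 CPM in wild types in the first series, and 63.0 CPM in mutants against 96.2 CPM in the wild type in the second. Every mutant of the first series was above its wild types and every mutant of the second was below its wild type. The difference of the log2 fold changes was -0.74 (SE 0.18), with an adjusted p of 0.396 in edgeR's test of the interaction and of 0.0443 in DESeq2. The second series rests on 1 wild-type mouse, a female beside male mutants, and neither sex nor alignment was tested apart from the series.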

How the results depend on the processing

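Of the 10 genes, 2 were called, of all tested genes 1504 and of the genes of the lists 8. With no series term these counts were 0, 309 and 0, with sex in its place 0, 102 and 0, with the replicate block (the pairing by number) 1, 812 and 3, with the non-Purkinje marker level as a term 0, 251 and 0, and in the first series alone 1, 679 and 2. In the second series alone they were 1, 1060 and 7, with 567 of all genes higher and 493 lower (455 and 1049 over both series), and 3 of the 7 list genes were among the 8. Leaving out 1 library gave 1 to 2, 599 to 1425 and 1 to 8. Without wild types 1, 2 and 3 the counts over all genes were 889, 751 and 599, and without mutant 2 the count was 917. RLE scaling, DESeq2, both other filters, protein-coding genes alone and thinned counts called the same pair, Atf3 and Atf5. The cause of these differences was not tested.

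Atf3 kept its direction in every alternative, with log2 fold changes of 2.15 to 2.71 when 1 library was left out. It missed the threshold with no series term (2.55), with sex (2.39), with the marker level (2.0) and in the first series alone (2.71), and thinning to the depth of mutant 1 gave 3.53. Atf5 had 0.86 to 1.28 when 1 library was left out, and missed the threshold with no series term (1.06), sex (1.21), the block (0.97), the marker level (1.42) and in the second series alone (0.75). Atf4 was above 0 and not called in every alternative. The block changed no other member's call.

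Estimates near 0 changed sign. Ddit3 was 0.02 with sex, 0.01 with thinned counts, 0.25 with the marker level, 0.16 in the first series alone and -0.29 to 0.16 when 1 library was left out. Ddit4 was 0.19 with the marker level, 0.13 in the first series alone and -0.27 to 0.13 when 1 library was left out. Asns was 0.08 with no series term, 0.09 with the marker level, 0.02 in the first series alone and -0.08 to 0.02 when 1 library was left out. Vldlr was -0.14 with the marker level, -0.05 in the first series alone and -0.05 to 0.19 when 1 library was left out. The interaction with series was called for 0 members by edgeR and for 1, Ddit4, by DESeq2, and it could not be fitted without wild type 3.

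Depth limits Atf3 and Trib3, with as few as 3 and 5 counts in a library. A single wild type in the second series limits the estimates there.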

Other observations

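Gdf15, which encodes a circulating stress hormone and is a target of ATF4 and CHOP, was among the genes too low to be tested, and is named here after its counts were seen. It had 8, 5, 13 and 7 counts in mutants 1 to 4, against 0, 1 and 0 counts in wild types 1 to 3. Every mutant was above every wild type, and the deepest library, wild type 3, had no count. Over the summed totals the ratio of mutants to wild types was 34.5, with an exact 95% interval of 5.77 to 1402 that covers counting error only. With no filter on low counts the adjusted p was 0.00359 in edgeR's quasi-likelihood test, while DESeq2 gave an unadjusted p of 5.50e-04 and left the gene out of its adjustment. Ddit4l, the paralog of Ddit4, was also under the filter, with 5, 7, 16 and 10 counts in mutants, against 2, 4 and 6 counts in wild types (adjusted p = 0.133 in edgeR with no filter).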
